A study of Mus musculus with 6 samples.

Results

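The protein-coding HOX genes of mouse embryonic fibroblasts were followed through 2 treatments that the series title links to apoptosis and necroptosis. Members were the rows of the deposited gene table whose symbol was Hoxa, Hoxb, Hoxc or Hoxd followed by a number and whose gene type was protein-coding, which gave 39 of 48897 rows, and all counts, sums and medians of HOX genes given here are over 38 of them. Mouse embryonic fibroblasts are mesenchymal cells grown out of embryo tissue. Here they came from strain C57BL/6 and were used at passages 5 to 7. Control cells received PBS, TC cells received TNF-ɑ with cycloheximide, and TCZ cells received TNF-ɑ, cycloheximide and z-VAD-fmk. TNF-ɑ is a cytokine that can trigger cell death, cycloheximide stops ribosomes from making protein, and z-VAD-fmk inhibits caspases, the proteases of apoptosis. There were 2 libraries of poly(A) RNA in each group. TNF-ɑ and cycloheximide were always given together and cannot be told apart, and the sources used here give neither doses nor times. No label states that the 2 libraries of a group were separate cultures or embryos. The p-values therefore reflect only how these libraries differ, and that spread may be technical.

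HOX proteins are homeodomain transcription factors that give cells along the body axis and the limbs their positional identity. Their genes lie in 4 clusters, and each gene carries a paralog number that follows its place in the cluster. Low-numbered genes are active towards the head and hindbrain, and high-numbered genes towards the trunk, tail, limb ends and genitals. Fibroblasts keep much of the HOX pattern of the body site they came from after they are placed in culture. HOX proteins bind DNA together with PBX and MEIS cofactors, while Polycomb complexes hold HOX genes silent and Trithorax and MLL complexes keep them active. In the deposited mm10 coordinates the 10 HoxA genes described lay within chr6:52162417-52260880 on the minus strand. HoxB spanned chr11:96194361-96368254 with 10 genes, HoxC chr15:102921131-103036856 with 9 genes, and HoxD chr2:74668310-74765142 with 9 genes, all 3 on the plus strand.

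The clusters also hold microRNA genes, whose mature sequences fall into the miR-196 and miR-10 seed families and are shown because their genes sit among the HOX genes and the miR-196 family is known to target several HOX mRNAs. In RefSeq (GRCm38.p6) miR-196a is encoded by both Mir196a-1 in HoxB with the mature bases at chr11:96265187-96265208 and Mir196a-2 in HoxC at chr15:102973365-102973386. Mir196b lies in HoxA, with the mature bases at chr6:52230129-52230150. Mir10a lies in HoxB at chr11:96317186-96317208 and Mir10b in HoxD at chr2:74726074-74726096. Capitals mark the seed, bases 2 to 8 from the 5′ end, which is shared within each family.
miR-196a-5p: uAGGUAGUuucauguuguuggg
miR-196b-5p: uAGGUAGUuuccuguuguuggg
miR-10a-5p: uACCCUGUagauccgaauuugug
miR-10b-5p: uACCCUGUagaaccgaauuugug
Poly(A) libraries do not measure mature microRNAs, so these sequences are given as context for the HOX mRNAs. The miR-196 seed site, ACTACCT, was present in 10 of 38 HOX transcripts (26.3%) and in 16.0% of all genes. The miR-10 seed site, ACAGGGT, was present in 6 of 38 (15.8%) and in 18.9% of all genes. Each gene was represented by its longest protein-coding transcript in GENCODE M21. The Hoxb8 mRNA holds a stretch facing the whole of miR-196a, printed here as transcript sequence with the bases facing the seed in capitals.
Hoxb8 site: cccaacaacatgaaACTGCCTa
This stretch starts at base 2208 of a transcript of 2635 bases, and 21 of the 22 microRNA bases face it as Watson-Crick pairs and 1 as a G-U pair. In the other 37 HOX transcripts the best ungapped alignment, ranked by Watson-Crick and G-U pairs together, held at most 15 Watson-Crick pairs. Alignments ranked lower were not recorded. The alignment was searched after an exact seed search had been seen. The reason was that the Hoxb8 site is well known and an exact seed search cannot find a G-U pair in the seed. The Hoxb8 transcript also held 1 exact seed site outside this stretch, so it is among the 10 counted above. Both searches are descriptions of letters, not of regulation.

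Promoter sequence is shown for members that were called changed against control in TCZ and belong to the 16 whose RefSeq window started at the same base as the deposited table. These were the 2 largest called falls, Hoxa9 and Hoxd9, and the one called rise, Hoxa2, a choice made with the values known. Hoxd1, also among the 16, had a higher change (2.02 ± 0.98 on the log2 scale, against 1.56 ± 0.46 for Hoxa2) but did not pass the test. The 250 bases before the start lie at chr6:52227371-52227620 on the minus strand for Hoxa9, at chr2:74697513-74697762 on the plus strand for Hoxd9, and at chr6:52164832-52165081 on the minus strand for Hoxa2. Capitals mark a GC box (GGGCGG on either strand) in Hoxa9 and Hoxd9 and CCAAT boxes (CCAAT on either strand) in Hoxa2.
Hoxa9: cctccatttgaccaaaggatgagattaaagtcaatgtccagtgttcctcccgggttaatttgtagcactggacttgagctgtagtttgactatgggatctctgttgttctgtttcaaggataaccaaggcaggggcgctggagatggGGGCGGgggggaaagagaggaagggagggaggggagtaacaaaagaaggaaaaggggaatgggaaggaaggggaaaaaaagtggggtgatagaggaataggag
Hoxd9: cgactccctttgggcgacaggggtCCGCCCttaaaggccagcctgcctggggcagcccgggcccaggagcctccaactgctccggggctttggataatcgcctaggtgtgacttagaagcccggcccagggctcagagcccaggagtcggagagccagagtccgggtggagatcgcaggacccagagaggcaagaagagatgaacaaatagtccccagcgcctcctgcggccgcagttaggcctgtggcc
Hoxa2: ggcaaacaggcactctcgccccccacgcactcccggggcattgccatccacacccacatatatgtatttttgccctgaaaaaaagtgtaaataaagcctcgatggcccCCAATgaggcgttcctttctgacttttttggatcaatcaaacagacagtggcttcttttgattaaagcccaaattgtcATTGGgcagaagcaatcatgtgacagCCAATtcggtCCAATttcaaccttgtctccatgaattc
Across the 24 windows available for 22 HOX genes, a CCAAT box was found in 14 (58.3%, against 33.8% of all 32851 windows) and a GC box in 10 (41.7%, against 32.7%). A TATA box (TATAAA) was found in 4 (16.7%, against 12.4%). An AP-1 site (TGANTCA) and a kappaB site, both motifs of factors that act downstream of TNF-ɑ, were found in 1 window each (4.17%, against 6.75% and 7.25% of all windows). The cAMP response element (TGACGTCA) was in 1.55% of all windows and in no HOX window. The Hoxa2 window held 4 CCAAT matches and 6 CpG dinucleotides, Hoxa9 held 3 CpG and Hoxd9 13 CpG, around a HOX median of 12.5 and a median of 6 over all windows. Matches on both strands were counted, a kappaB match may share letters with a GC box, and the motifs were chosen after fold changes had been seen. A match describes the letters of a window and says nothing on binding.

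Total counts ranged from 24922627 to 52909926 per library, with control 2 and TCZ 2 the shallowest at 26834352 and 24922627, so results are also given without these 2 libraries. HOX rows drew between 4533 and 16794 counts per library. Fibroblast markers were present in every library: the collagen gene Col1a1 had between 249469 and 600722 counts, and the summed level of 14 fibroblast markers was 9159 to 9903 in control, 8667 to 8747 in TC and 9156 to 9976 in TCZ, with 2 of the 14 higher and 9 lower in TC and 1 higher and 3 lower in TCZ. That sum follows the most abundant genes, and the growth factor receptor genes Pdgfra and Pdgfrb, the 2 with the smallest adjusted p, were lower. Pdgfra had levels of 14.1 and 12.6 (control), 8.24 and 7.82 (TC) and 2.25 and 1.91 (TCZ), a 6.37-fold drop in TCZ, and Pdgfrb had levels of 85.8 and 81.2 (control), 25.1 and 24.6 (TC) and 47.1 and 44.3 (TCZ), a 3.36-fold drop in TC. Level here means reads per kilobase of the table's gene length per 1e+06 counts, scaled by TMM factors, so that levels compare across libraries. Between genes they compare only as far as the table's lengths fit the transcripts counted. Table lengths were 10979 bases for Hoxc6 and 7834 for Hoxa3, against 1581 and 2591 in their longest protein-coding transcripts. Markers of other cells were also present and moved with treatment. Summed epithelial markers were 11.8 to 13.7 in control, 53.1 to 58.0 in TC and 9.46 to 12.3 in TCZ, carried by the keratins Krt19 and Krt18, and of 6 tested of 10 listed 5 rose in TC and 1 rose and 1 fell in TCZ, while the defining adhesion gene Cdh1 stayed between 1 and 12 counts. Summed endothelial markers were 2.56 to 2.96, 25.8 to 27.1 and 11.55 to 11.96 in the same order, with 2 higher and 2 lower of 7 tested of 8 listed in TC and 3 higher in TCZ. Kdr gave most of that sum in both treatments, with levels of 1.66 and 1.76 (control), 26.4 and 25.2 (TC) and 7.44 and 7.13 (TCZ), while Pecam1 had levels of 0.00529 and 0.0341 (control), 0.0476 and 0.0258 (TC) and 2.8 and 2.76 (TCZ). Summed neural markers were 47.9 to 51.2, 41.6 to 43.3 and 28.1 to 28.5, and of 8 tested of 10 listed 4 rose and 1 fell in TC and 3 rose and 3 fell in TCZ. Summed leukocyte markers were 9.92 to 10.1, 7.35 to 9.58 and 15.9 to 16.2. Of 9 tested of 12 listed, 1 was higher and 1 lower in TC, and 3 were higher and 1 lower in TCZ. Itgam had levels of 0.0704 and 0.135 (control), 0.0792 and 0.0902 (TC) and 0.761 and 1.26 (TCZ). Lyz2 had levels of 6.08 and 5.4 (control), 4.23 and 5.16 (TC) and 9.92 and 9.31 (TCZ). These 2 had the smallest adjusted p of that list, and both were called higher in TCZ. The globin gene Hbb-bt, also listed there, was at 0 in all 6 libraries. Muscle markers summed to 120.3 to 129.6, 98.9 to 101.8 and 108.5 to 113.6, with 2 higher and 1 lower of 4 tested of 8 listed in TC and 1 lower in TCZ. Most of that sum was the skeletal actin gene Acta1 at 110.1 and 102 (control), 72.5 and 69.7 (TC) and 97.6 and 94.3 (TCZ), above every HOX gene, while the muscle lineage genes Myod1, Myog and Pax7 had 0 to 7 counts per library. Over all tested genes, 31.6% were called higher and 29.2% lower in TC, and 31.5% and 28.6% in TCZ. The part of the marker shifts in the HOX results was not tested. In bulk RNA, fewer cells of a type and less RNA per cell cannot be told apart.

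Control fibroblasts carried HOX mRNA from all 4 clusters, with paralogs 8 to 10 at the top when levels used the table's gene lengths. The summed HOX level was 126.9 and 120.9 in the 2 control libraries. HoxB gave 51.5 to 53.0 of it, HoxC 43.6 to 45.8, HoxA 13.9 to 15.1 and HoxD 11.9 to 13.1. Hoxb9, a paralog that helps to pattern the thoracic axis, was the highest gene by level at 24.2 ± 0.951 (SD, n = 2) and made up 19.5 to 19.6% of the sum. Hoxc8, a lower-thoracic gene, came next at 12.7 ± 1.11, and Hoxc10, a lumbar and hindlimb gene, followed at 10.4 ± 0.204. Each of these 3 was separated from the next gene by library values that did not overlap. Below them Hoxd8, Hoxb6, Hoxb2, Hoxb7, Hoxc9 and Hoxc6 lay between 5.73 and 6.97, and neighbours in this run could not be ordered because their libraries overlapped. Hoxa10 and Hoxb8 shared a level of 3.89 and 3.88, Hoxc5 and Hoxb4 lay at 3.36 and 3.18, and Hoxc11 and Hoxa11 at 2.92 and 2.90, each pair overlapping within itself and separated from the next. The next run, Hoxa9, Hoxb5, Hoxa5, Hoxa7, Hoxc4, Hoxd9 and Hoxc13, fell from 2.04 to 1.44 with overlapping neighbours, and from Hoxd13 at 1.09 to Hoxc12 at 0.642 neighbours overlapped again. At the bottom, Hoxd3, Hoxa3, Hoxd11, Hoxa2 and Hoxa13 lay between 0.286 and 0.465. Ranks, sums and shares of HOX genes here and below rest on the table's gene lengths. Hoxc6 had 3153 and 1833 counts in control, against 3265 and 1919 for Hoxb9, over table lengths of 10979 and 2701 bases. The longest protein-coding transcripts were 1581 and 2574 bases, so the place of Hoxb9 at the top depends on the length used. Hoxb1, the hindbrain gene that marks the fourth rhombomere, had 0 counts in every library, which allows up to 3 counts in each. Hoxb13, best known in prostate, had 2 and 3 (control), 6 and 0 (TC) and 2 and 0 (TCZ). Hoxd12, a limb gene, had 2 and 1 (control), 0 and 5 (TC) and 0 and 0 (TCZ). These 3 members were below the low-count filter and were not tested, which left 35 of 38.

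**Figure D1:**
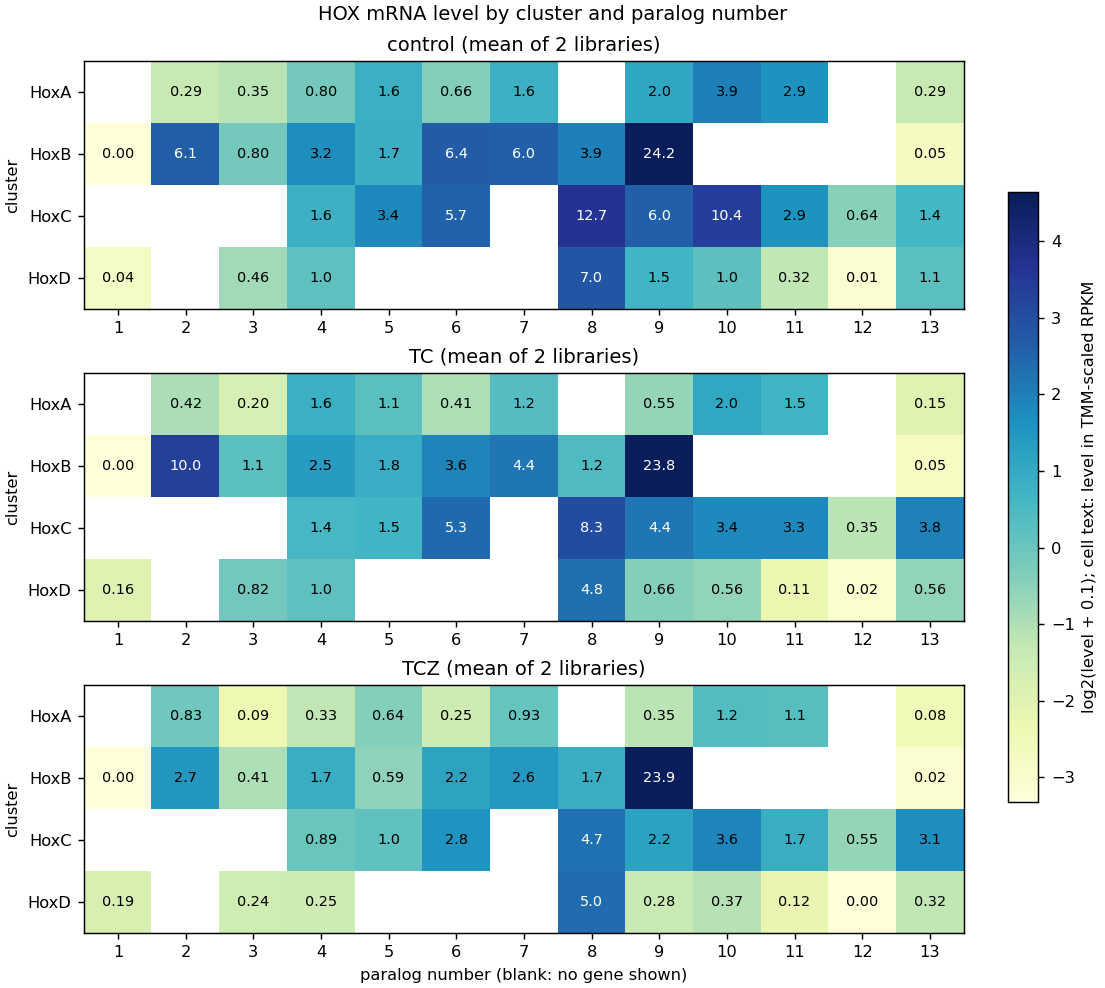
HOX mRNA level by cluster (rows) and paralog number (columns) in control, TC and TCZ; colour is log2(level + 0.1) and the cell text is the mean level of 2 libraries in TMM-scaled RPKM. Hoxb9 stays at 24.2, 23.8 and 23.9, while most other cells are paler in TCZ than in control.

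The summed HOX level was lower in both treatments. It was 97.5 and 98.7 in TC and 69.4 and 68.7 in TCZ, below both control libraries in each case. The order of levels also shifted. In TC Hoxb2 ranked 2 at 10.04 ± 0.719, separated from Hoxb9 above and Hoxc8 below. In TCZ Hoxd8 and Hoxc8 ranked 2 and 3 at 5.03 and 4.68 with overlapping libraries, followed by Hoxc10 at 3.60 and Hoxc13 at 3.14. Hoxb9 made up 23.8 to 24.7% of the sum in TC and 33.3 to 35.8% in TCZ. Without Hoxb9 the sum was 97.4 to 102.0 in control, 74.3 in both TC libraries and 44.6 to 45.8 in TCZ. By cluster, HoxB summed to 47.3 to 49.7 in TC and 35.2 to 36.5 in TCZ. HoxC summed to 30.8 to 32.6 in TC and 20.5 to 20.7 in TCZ, HoxA to 8.88 to 9.39 and 5.39 to 6.29, and HoxD to 8.74 in both TC libraries and 6.15 to 7.44 in TCZ.

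In TC against control, which asks how TNF-ɑ with cycloheximide changed the cells, 17 of 35 tested HOX genes fell and 4 rose. Genes called lower made up 29.2% and genes called higher 31.6% of all 18563 tested genes, 60.7% in all. The median HOX change was -0.54 on the log2 scale, against 0.02 over all tested genes. All changes, their standard errors (SE) and adjusted p-values here and below are from edgeR's quasi-likelihood test with Benjamini-Hochberg adjustment over all tested genes, at a threshold of 0.05. The 4 that rose were Hoxa4, Hoxb2, Hoxb3 and Hoxc13. All but the last have paralog numbers of 1 to 4. In that range 3 of 10 tested genes rose and 2 fell. In paralogs 5 to 8, 6 of 11 fell, and in paralogs 9 to 13, 9 of 14 fell and 1 rose. These ranges were drawn after the values were seen, and whether they differ was not tested. The TC libraries lay below both control libraries for 23 of 35 genes and above both for 6, against 38.8% and 40.7% of all tested genes. Of the called genes, 2 that rose (Hoxb2 and Hoxc13) and 10 that fell held in every alternative that gave a value.

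In TCZ against control, 28 of 35 tested HOX genes fell and 2 rose, against 28.6% of all tested genes called lower and 31.5% called higher, 60.1% in all. The median HOX change was -1.33, against 0.05 over all tested genes. The 2 that rose were Hoxa2 and Hoxc13, and the 5 that did not pass were Hoxa6, Hoxa13, Hoxb9, Hoxc12 and Hoxd1. By cluster, 7 of 10 tested HoxA genes fell, 7 of 8 in HoxB, 7 of 9 in HoxC and 7 of 8 in HoxD. Paralogs 1 to 4 gave 8 falls among 10 tested genes, paralogs 5 to 8 gave 10 of 11, and paralogs 9 to 13 gave 10 of 14. The TCZ libraries lay below both control libraries for 30 genes and above both for 3, against 37.2% and 40.7% of all tested genes. The TC and TCZ comparisons use the same control libraries, so their values stand side by side without a test of likeness. Of the falls, 23 held in every alternative that gave a value.

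In TCZ against TC, which asks what the caspase inhibitor added, 20 of 35 tested HOX genes fell and 1, Hoxb8, rose. Genes called lower made up 27.9% and genes called higher 28.2% of all tested genes, 56.1% in all. The median HOX change was -0.71, against 0.02 over all tested genes. Among paralogs 1 to 4, 8 of 10 tested genes were lower in TCZ than in TC, including the 3 that had risen in TC. Of paralogs 5 to 8, 7 of 11 fell and 1 rose, and of paralogs 9 to 13, 5 of 14 fell. The TCZ libraries lay below both TC libraries for 24 genes and above both for 4, against 38.4% and 40.1% of all tested genes. Of the falls, 13 held in every alternative that gave a value. Without control 2 and TCZ 2, the counts were 3 higher and 16 lower in TC against control and 2 higher and 27 lower in TCZ against control. In TCZ against TC 18 were then lower, and the Hoxb8 rise was lost (0.32, adjusted p = 0.203).

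**Figure D2:**
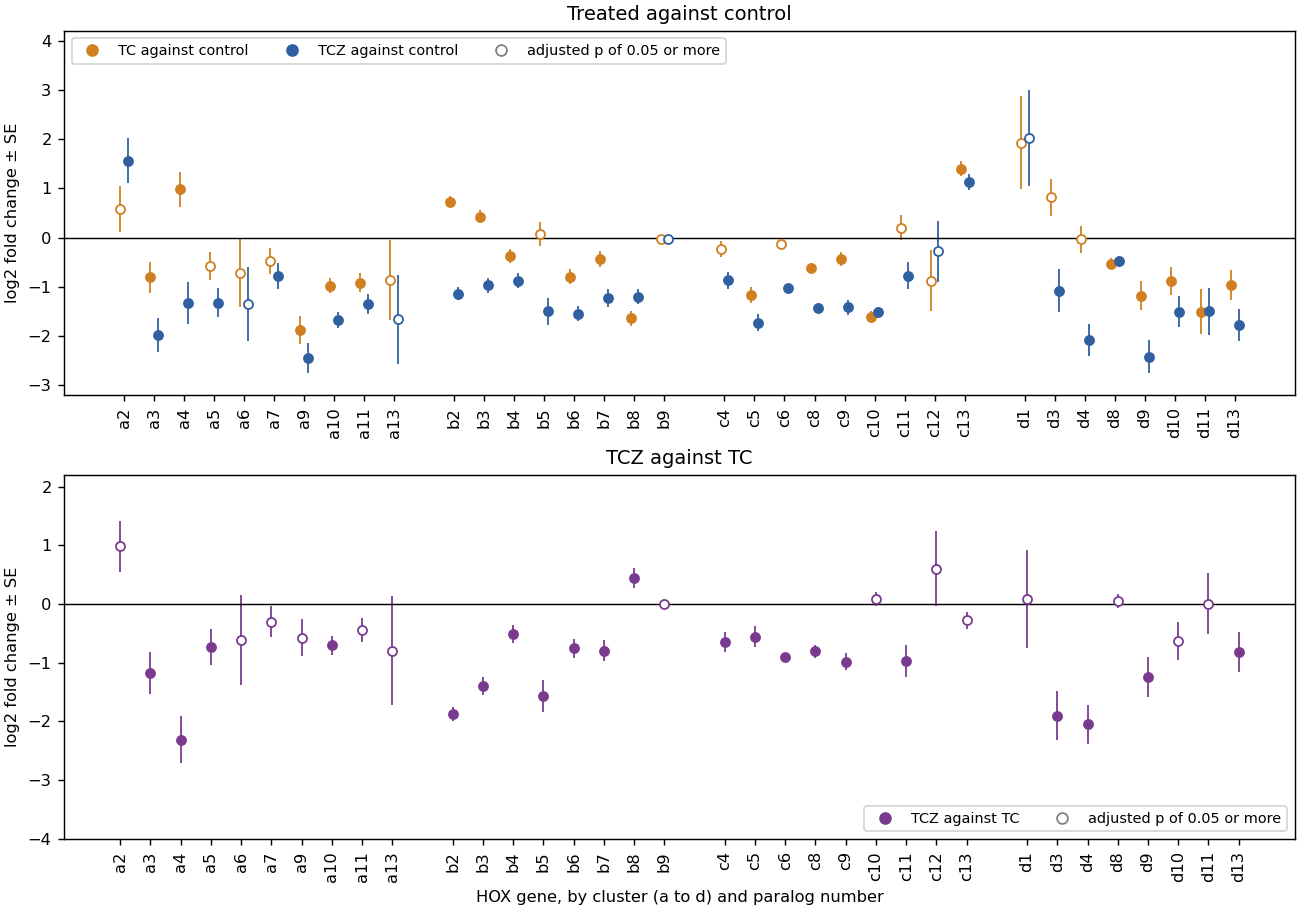
Log2 fold change ± SE of the 35 tested HOX genes, by cluster and paralog number; filled points pass an adjusted p of 0.05 and open points do not. Most TCZ points lie below 0 and the median is -1.33 for TCZ against control, while Hoxa4, Hoxb2 and Hoxb3 are called higher in TC only. Hoxb5, Hoxc11 and Hoxd3 also lie above 0 in TC and below 0 in TCZ, but do not pass in TC.

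Hoxb2, Hoxa2 and Hoxd1 act in the hindbrain and the pharyngeal arches, and of these Hoxb2 rose in TC and fell in TCZ. Changes are given on the log2 scale, and where 3 stand in a row the first compares TC with control, the next compares TCZ with control, and the last compares TCZ with TC. Hoxb2, which acts in the fourth rhombomere and its facial motor neurons, had levels of 5.76 and 6.37 (control), 9.53 and 10.5 (TC) and 2.91 and 2.5 (TCZ), with no overlap between any groups. Hoxb2 rose by 0.73 ± 0.11 (adjusted p = 7.65e-06) in TC, fell by 1.14 ± 0.13 (adjusted p = 9.09e-08) in TCZ against control and fell by 1.87 ± 0.12 (adjusted p = 3.19e-11) in TCZ against TC. Its level in TCZ was 3.66-fold below that in TC. Hoxa2, the selector gene of the second pharyngeal arch, went the other way in TCZ. Levels of Hoxa2 were 0.221 and 0.355 (control), 0.499 and 0.34 (TC) and 0.824 and 0.839 (TCZ), on counts of 19 and 19 (control), 43 and 30 (TC) and 71 and 36 (TCZ), so that TC overlapped control and TCZ lay above both. It rose by 1.56 ± 0.46 (adjusted p = 0.0058) in TCZ against control and did not pass in TC (0.58 ± 0.47) or in TCZ against TC (0.98 ± 0.43). Hoxd1 was close to the detection limit, with counts of 3 and 3 (control), 15 and 15 (TC) and 6 and 14 (TCZ) and levels of 0.0332 and 0.0534 (control), 0.166 and 0.162 (TC) and 0.0664 and 0.311 (TCZ). It did not pass in any comparison, at 1.93 ± 0.95, 2.02 ± 0.98 and 0.09 ± 0.83 in the order used above. The Hoxa2 rise in TCZ was lost without control 1 (1.22, adjusted p = 0.0766). Here and in later sentences of this kind the brackets hold the log2 change and adjusted p of the fit that left out that library.

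Paralogs 3 and 4, which pattern the neck, were split in TC and fell together in TCZ, where all 7 tested genes were called lower. Hoxa3, needed for the thymus and parathyroid, had levels of 0.402 and 0.305 (control), 0.223 and 0.182 (TC) and 0.071 and 0.116 (TCZ), a stepwise drop without overlap. It fell by 0.81 ± 0.31 (adjusted p = 0.0292) in TC, fell by 1.99 ± 0.35 (adjusted p = 4.68e-05) in TCZ against control and fell by 1.18 ± 0.36 (adjusted p = 0.00809) in TCZ against TC. Hoxb3, a hindbrain and neck gene, had levels of 0.798 and 0.804 (control), 1.03 and 1.12 (TC) and 0.398 and 0.423 (TCZ). Its TC libraries were above and its TCZ libraries below control, and it rose by 0.43 ± 0.14 (adjusted p = 0.011), fell by 0.97 ± 0.15 (adjusted p = 1.14e-05) and fell by 1.40 ± 0.15 (adjusted p = 6.23e-08) in the same order. Hoxd3, which shapes the first and second neck vertebrae, had levels of 0.461 and 0.469 (control), 0.731 and 0.908 (TC) and 0.114 and 0.37 (TCZ). The 2 TCZ libraries differed widely, both below control. Hoxd3 did not pass in TC (0.82 ± 0.38), although it did in 5 of 14 alternatives with adjusted p down to 0.0139, while it fell by 1.08 ± 0.44 (adjusted p = 0.0379) in TCZ against control and fell by 1.90 ± 0.42 (adjusted p = 0.000595) in TCZ against TC.

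Hoxa4 had levels of 1.11 and 0.499 (control), 1.5 and 1.78 (TC) and 0.31 and 0.352 (TCZ), with the 2 control libraries further apart than those of TC or TCZ. It rose by 0.98 ± 0.35 (adjusted p = 0.0202) in TC, fell by 1.33 ± 0.42 (adjusted p = 0.00915) in TCZ against control and fell by 2.32 ± 0.40 (adjusted p = 4.42e-05) in TCZ against TC. Hoxb4, known for expanding blood stem cells when overexpressed, had levels of 3.35 and 3.01 (control), 2.37 and 2.56 (TC) and 1.78 and 1.66 (TCZ). Each step was downward without overlap, as it fell by 0.37 ± 0.14 (adjusted p = 0.0306), fell by 0.88 ± 0.15 (adjusted p = 3.84e-05) and fell by 0.51 ± 0.15 (adjusted p = 0.00785). Hoxc4, the gene at the anterior end of the HoxC cluster, had levels of 1.68 and 1.53 (control), 1.26 and 1.49 (TC) and 0.778 and 1.01 (TCZ). It did not pass in TC (-0.23 ± 0.16) and fell by 0.87 ± 0.18 (adjusted p = 0.000197) in TCZ against control and fell by 0.65 ± 0.17 (adjusted p = 0.00342) in TCZ against TC. Hoxd4 had levels of 1.17 and 0.907 (control), 0.909 and 1.13 (TC) and 0.225 and 0.275 (TCZ), so that TC overlapped control and TCZ lay far below both. In TC it stood at -0.03 ± 0.28 with a 95% interval of -0.61 to 0.54, whereas it fell by 2.09 ± 0.33 (adjusted p = 1.1e-05) in TCZ against control and fell by 2.05 ± 0.33 (adjusted p = 1.56e-05) in TCZ against TC. In fold terms Hoxd4 was 4.25-fold below control in TCZ, and Hoxa3 3.97-fold.

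Several of these calls were lost when 1 library was left out. The Hoxa3 fall in TC was lost without TC 2 (-0.67, adjusted p = 0.135) or control 1 (-0.58, adjusted p = 0.264), and its fall against TC without TCZ 1 (-0.81, adjusted p = 0.116). The Hoxa4 rise in TC was lost without TC 2 (0.86, adjusted p = 0.0841) or control 2 (0.56, adjusted p = 0.217), and its fall in TCZ without control 1 (-0.61, adjusted p = 0.319). The Hoxb3 rise in TC was lost without TC 2 (0.37, adjusted p = 0.086), control 1 (0.42, adjusted p = 0.0679) or control 2 (0.42, adjusted p = 0.0553). The Hoxb4 fall in TC was lost without TC 1 (-0.32, adjusted p = 0.155), TC 2 (-0.42, adjusted p = 0.0551) or control 1 (-0.29, adjusted p = 0.233). The Hoxc4 fall against TC was lost without TCZ 1 (-0.45, adjusted p = 0.068). The Hoxd3 fall in TCZ was lost without TCZ 1 (-0.34, adjusted p = 0.558), control 1 (-1.10, adjusted p = 0.111) or control 2 (-1.09, adjusted p = 0.0941). The span of Hoxa3 in the table contains those of Hoxa4, Hoxa5 and Hoxa6, that of Hoxb3 contains Hoxb4, and that of Hoxd3 contains Hoxd4. How reads in these shared spans were divided is not stated in the sources used, so values of these genes are uncertain to that extent.

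**Figure D3:**
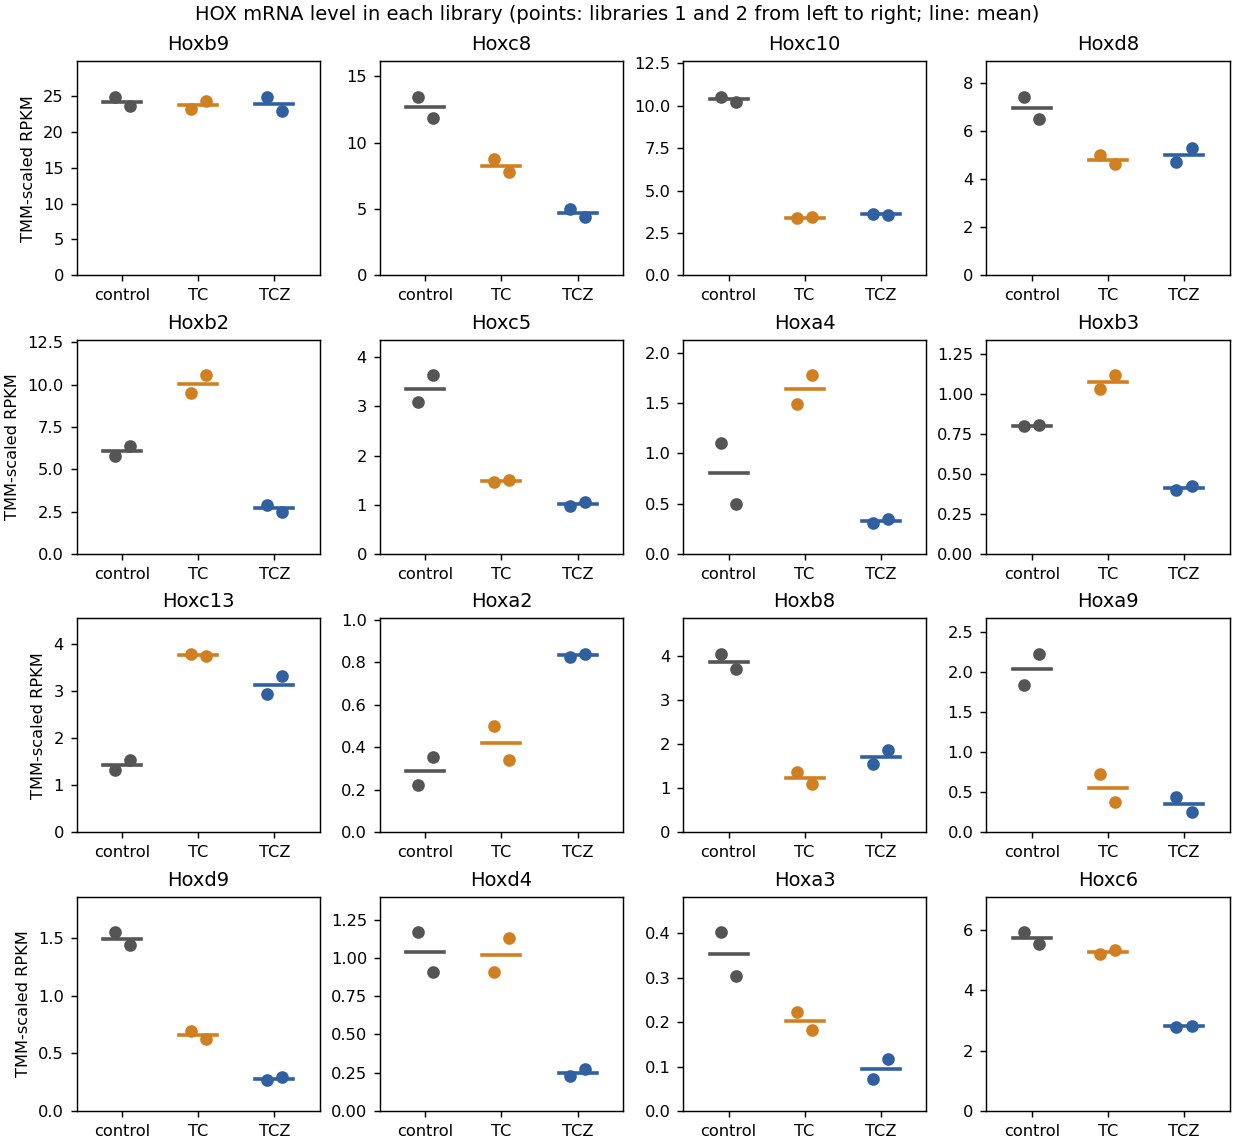
Level (TMM-scaled RPKM, axes from 0) of 16 HOX genes in each library, with a line at the mean of 2; the genes were picked after their values were seen. Hoxb9 is flat near 24, Hoxb2, Hoxa4, Hoxb3 and Hoxc13 peak in TC, and Hoxc10 and Hoxd8 reach nearly the same level in TC and TCZ.

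Paralogs 5 to 7 mark the lower neck and upper chest, and 7 of the 8 tested genes fell in TCZ. Hoxa5, which acts in lung and in the neck-to-chest transition, had levels of 1.39 and 1.89 (control), 1.25 and 0.922 (TC) and 0.692 and 0.595 (TCZ). It did not pass in TC (-0.59 ± 0.28) and fell by 1.32 ± 0.31 (adjusted p = 0.000767) in TCZ against control and fell by 0.74 ± 0.31 (adjusted p = 0.0459) in TCZ against TC. Hoxb5 had levels of 1.91 and 1.45 (control), 1.61 and 1.94 (TC) and 0.62 and 0.567 (TCZ), with TC overlapping control and TCZ below both. It stood at 0.07 ± 0.24 in TC and fell by 1.50 ± 0.27 (adjusted p = 6.77e-05) and fell by 1.57 ± 0.27 (adjusted p = 4.38e-05) in TCZ against control and against TC. Hoxc5 had levels of 3.09 and 3.63 (control), 1.46 and 1.51 (TC) and 0.981 and 1.05 (TCZ), and most of its drop was already present in TC. It fell by 1.17 ± 0.16 (adjusted p = 1.86e-06), fell by 1.73 ± 0.18 (adjusted p = 1.89e-08) and fell by 0.56 ± 0.18 (adjusted p = 0.0125) in the 3 comparisons.

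Hoxa6 was low, with counts of 29 and 10 (control), 10 and 18 (TC) and 11 and 3 (TCZ) and levels of 0.855 and 0.474 (control), 0.295 and 0.518 (TC) and 0.324 and 0.177 (TCZ), and did not pass in any comparison (-0.73 ± 0.70, -1.34 ± 0.75 and -0.62 ± 0.77). Hoxb6, a thoracic gene with rib-promoting activity, had levels of 5.86 and 6.85 (control), 3.3 and 3.99 (TC) and 2.09 and 2.26 (TCZ). It stepped down without overlap and fell by 0.80 ± 0.15 (adjusted p = 6.61e-05), fell by 1.55 ± 0.16 (adjusted p = 2.28e-08) and fell by 0.75 ± 0.16 (adjusted p = 0.000449). Hoxc6, a brachial and upper-thoracic gene, had levels of 5.92 and 5.54 (control), 5.19 and 5.35 (TC) and 2.8 and 2.81 (TCZ). TC was just below control and did not pass (-0.12 ± 0.07), while TCZ was near 2.8 in both libraries. Hoxc6 fell by 1.03 ± 0.08 (adjusted p = 8.4e-11) in TCZ against control and fell by 0.91 ± 0.08 (adjusted p = 1.17e-09) in TCZ against TC. Hoxa7 had levels of 1.46 and 1.78 (control), 1.07 and 1.25 (TC) and 0.992 and 0.869 (TCZ), and it did not pass in TC (-0.48 ± 0.26) or in TCZ against TC (-0.30 ± 0.27) but fell by 0.78 ± 0.27 (adjusted p = 0.0158) in TCZ against control. Hoxb7 had levels of 6.3 and 5.7 (control), 4.75 and 4.12 (TC) and 2.26 and 2.97 (TCZ), a drop at each step. It fell by 0.44 ± 0.17 (adjusted p = 0.0262), fell by 1.23 ± 0.18 (adjusted p = 3.85e-06) and fell by 0.79 ± 0.18 (adjusted p = 0.000762). The Hoxb7 fall in TC was lost without TC 2 (-0.33, adjusted p = 0.165) or control 1 (-0.36, adjusted p = 0.196), and the Hoxa7 fall in TCZ without TCZ 2 (-0.69, adjusted p = 0.0539) or control 2 (-0.65, adjusted p = 0.0972). The falls against TC were lost for Hoxa5 without TC 1 (-0.51, adjusted p = 0.265), TCZ 1 (-0.87, adjusted p = 0.0582), TCZ 2 (-0.65, adjusted p = 0.118) or control 2 (-0.75, adjusted p = 0.0505), and for Hoxc5 without TCZ 1 (-0.51, adjusted p = 0.0677).

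Of the paralogs numbered 8, all 3 fell in both treatments, and Hoxc8 was also lower in TCZ than in TC. Hoxc8 had levels of 13.5 and 11.9 (control), 8.76 and 7.77 (TC) and 4.98 and 4.38 (TCZ), a stepwise drop. It fell by 0.62 ± 0.10 (adjusted p = 9.88e-06), fell by 1.43 ± 0.10 (adjusted p = 8.65e-11) and fell by 0.81 ± 0.11 (adjusted p = 1.12e-06) in the 3 comparisons. Hoxd8 had levels of 7.44 and 6.49 (control), 4.99 and 4.66 (TC) and 4.74 and 5.32 (TCZ), so that TC and TCZ overlapped each other below control. It fell by 0.54 ± 0.11 (adjusted p = 0.0003) in TC and fell by 0.48 ± 0.12 (adjusted p = 0.00108) in TCZ, and the difference between the treatments was 0.05 ± 0.12 with a 95% interval of -0.19 to 0.29. Hoxb8, which holds the miR-196a stretch printed above and is known for roles in blood progenitors and microglia, had levels of 4.06 and 3.71 (control), 1.38 and 1.11 (TC) and 1.54 and 1.88 (TCZ). Both TCZ libraries were above both TC libraries and far below control. Hoxb8 fell by 1.65 ± 0.16 (adjusted p = 6e-09) in TC and fell by 1.20 ± 0.16 (adjusted p = 8.51e-07) in TCZ, and it rose by 0.44 ± 0.17 (adjusted p = 0.0291) in TCZ against TC. That rise was lost without TC 2 (0.28, adjusted p = 0.232), TCZ 2 (0.32, adjusted p = 0.16), control 1 (0.44, adjusted p = 0.0564) or control 2 (0.43, adjusted p = 0.0521), and under 5 other settings.

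In TCZ against control, paralog 9 held both the smallest change, Hoxb9, and the 2 largest falls, Hoxa9 and Hoxd9, among the 35 tested members. Hoxb9 had levels of 24.9 and 23.6 (control), 23.2 and 24.4 (TC) and 24.9 and 22.9 (TCZ), on counts of 3265 and 1919 (control), 3050 and 3272 (TC) and 3258 and 1496 (TCZ). All 3 groups overlapped, and its changes of -0.03 ± 0.07, -0.02 ± 0.08 and 0.01 ± 0.07 had 95% intervals of -0.18 to 0.13, -0.18 to 0.14 and -0.15 to 0.16. With library totals in place of TMM factors, Hoxb9 was called lower in both treatments (-0.17 and -0.22), so a flat Hoxb9 is a statement on the TMM scale. Hoxa9, which drives several leukaemias when overexpressed, had levels of 1.84 and 2.23 (control), 0.727 and 0.374 (TC) and 0.447 and 0.256 (TCZ). Every treated library was below 0.75 and every control library above 1.8. Hoxa9 fell by 1.88 ± 0.28 (adjusted p = 4.1e-06) in TC and fell by 2.45 ± 0.30 (adjusted p = 3.25e-07) in TCZ, a 5.48-fold drop, and did not pass in TCZ against TC (-0.57 ± 0.32). Without TC 2 (-0.98, adjusted p = 0.00295) or TCZ 1 (-1.11, adjusted p = 0.00853) it was called lower there. Hoxd9, which acts with Hoxa9 in the limb and lumbar region, had levels of 1.55 and 1.44 (control), 0.696 and 0.623 (TC) and 0.265 and 0.295 (TCZ). It fell by 1.18 ± 0.29 (adjusted p = 0.00148) in TC, fell by 2.43 ± 0.34 (adjusted p = 1.93e-06) in TCZ and fell by 1.25 ± 0.35 (adjusted p = 0.00419) in TCZ against TC, and its drop in TCZ was 5.38-fold. Hoxc9, which sets the thoracic motor column, had levels of 6.23 and 5.73 (control), 4.62 and 4.24 (TC) and 2.4 and 2.02 (TCZ). It fell by 0.44 ± 0.14 (adjusted p = 0.00836), fell by 1.42 ± 0.15 (adjusted p = 3.22e-08) and fell by 0.98 ± 0.15 (adjusted p = 9.05e-06), and the first of these calls was lost without TC 2 (-0.37, adjusted p = 0.068) or control 1 (-0.37, adjusted p = 0.11).

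Paralogs 10 and 11, which suppress ribs in the lumbar region and shape the sacrum and the middle limb segment, fell in both treatments with 1 exception in TC, Hoxc11. Hoxa10, also a gene of the uterus, had levels of 4.24 and 3.54 (control), 1.77 and 2.19 (TC) and 1.32 and 1.07 (TCZ). It stepped down and fell by 0.98 ± 0.15 (adjusted p = 5.87e-06), fell by 1.69 ± 0.16 (adjusted p = 7.02e-09) and fell by 0.71 ± 0.17 (adjusted p = 0.001). Hoxc10 had levels of 10.5 and 10.2 (control), 3.38 and 3.43 (TC) and 3.64 and 3.56 (TCZ), with TC and TCZ close together and far below control. It fell by 1.61 ± 0.11 (adjusted p = 2.84e-11) in TC and fell by 1.53 ± 0.11 (adjusted p = 1.19e-10) in TCZ, and the difference between treatments was 0.08 ± 0.12 with a 95% interval of -0.16 to 0.33. Hoxd10 had levels of 0.946 and 1.14 (control), 0.584 and 0.541 (TC) and 0.325 and 0.415 (TCZ), and it fell by 0.88 ± 0.29 (adjusted p = 0.0122) in TC and fell by 1.51 ± 0.32 (adjusted p = 0.000278) in TCZ, with -0.63 ± 0.32 between them. Hoxa11 had levels of 3.29 and 2.52 (control), 1.49 and 1.6 (TC) and 1.19 and 1.08 (TCZ). It fell by 0.92 ± 0.19 (adjusted p = 0.000216) in TC and fell by 1.35 ± 0.20 (adjusted p = 4.56e-06) in TCZ and did not pass between them (-0.43 ± 0.20). Hoxc11 had levels of 2.86 and 2.97 (control), 3.8 and 2.88 (TC) and 1.55 and 1.9 (TCZ), with TC overlapping control and TCZ below both. It stood at 0.20 ± 0.25 in TC and fell by 0.77 ± 0.28 (adjusted p = 0.0196) and fell by 0.97 ± 0.27 (adjusted p = 0.00424) in TCZ against control and TC. Hoxd11 had levels of 0.342 and 0.291 (control), 0.117 and 0.105 (TC) and 0.093 and 0.137 (TCZ), overlapping between the treatments, and it fell by 1.51 ± 0.46 (adjusted p = 0.00758) and fell by 1.50 ± 0.48 (adjusted p = 0.0104), with 0.01 ± 0.52 between TC and TCZ.

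Among the paralog 10 and 11 calls, the Hoxd10 fall in TC was lost without TC 2 (-0.83, adjusted p = 0.0548) or control 2 (-0.76, adjusted p = 0.083). The Hoxc11 fall in TCZ was lost without TCZ 1 (-0.63, adjusted p = 0.117), control 1 (-0.81, adjusted p = 0.0598) or control 2 (-0.77, adjusted p = 0.0601), and its fall against TC without TC 1 (-0.76, adjusted p = 0.0584). The Hoxd11 fall was lost in TC without control 1 (-1.38, adjusted p = 0.0729), and in TCZ without TCZ 1 (-1.22, adjusted p = 0.0995) or control 1 (-1.38, adjusted p = 0.0802). Spans of Hoxd10 and Hoxd11 overlap by 2744 bases in the table, and Hoxa11 overlaps the antisense row Hoxa11os by 568 bases, which itself fell by 0.84 ± 0.32 (adjusted p = 0.0255) in TC and fell by 1.35 ± 0.34 (adjusted p = 0.0016) in TCZ.

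Paralogs 12 and 13 belong to the tail end, the digits, the genital tubercle and the hair. Hoxc13, a regulator of hair and nail keratins, was the one member called higher than control in both treatments. Hoxd1 and Hoxa2 were also above 0 in both, but Hoxd1 passed in neither and Hoxa2 in TCZ alone. Its levels were 1.34 and 1.54 (control), 3.8 and 3.76 (TC) and 2.96 and 3.33 (TCZ), with all 4 treated libraries above both control libraries. It rose by 1.40 ± 0.15 (adjusted p = 4.17e-08) in TC and rose by 1.13 ± 0.16 (adjusted p = 1.83e-06) in TCZ, 2.65-fold and 2.19-fold, and the difference between them was -0.28 ± 0.14. Both rises held in all 14 alternatives. Hoxd13, a digit gene, had levels of 1.1 and 1.08 (control), 0.539 and 0.575 (TC) and 0.315 and 0.316 (TCZ), and each group was tight and lower than the one before. It fell by 0.97 ± 0.30 (adjusted p = 0.00822), fell by 1.78 ± 0.33 (adjusted p = 7.32e-05) and fell by 0.82 ± 0.33 (adjusted p = 0.0433). Hoxc12 had levels of 0.733 and 0.551 (control), 0.342 and 0.358 (TC) and 0.416 and 0.687 (TCZ) on 14 to 30 counts, and did not pass in any comparison (-0.88 ± 0.62, -0.27 ± 0.62 and 0.61 ± 0.64). Hoxa13 had counts of 17 and 12 (control), 4 and 16 (TC) and 8 and 1 (TCZ) and levels of 0.268 and 0.304 (control), 0.0629 and 0.246 (TC) and 0.126 and 0.0316 (TCZ), and did not pass either (-0.87 ± 0.82, -1.66 ± 0.90 and -0.79 ± 0.93). The Hoxd13 fall in TC was lost without control 1 (-0.95, adjusted p = 0.0519), and its fall against TC was lost without TC 1 (-0.87, adjusted p = 0.0747), TC 2 (-0.78, adjusted p = 0.119), TCZ 1 (-0.82, adjusted p = 0.136), TCZ 2 (-0.82, adjusted p = 0.0905), control 1 (-0.83, adjusted p = 0.059) or control 2 (-0.83, adjusted p = 0.0519).

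Noncoding rows between and opposite the HOX genes did not all follow their neighbours. At the anterior end of HoxA, on the strand opposite to Hoxa2 and Hoxa3, lie Hoxaas2, Gm15050 and 5730596B20Rik, among others. Hoxaas2, between Hoxa2 and Hoxa3 and overlapping the end of Hoxa3 by 390 bases, had counts of 7 and 13 (control), 47 and 47 (TC) and 142 and 49 (TCZ). With library size accounted for it rose by 1.84 ± 0.49 (adjusted p = 0.00255) in TC, rose by 3.23 ± 0.47 (adjusted p = 4e-06) in TCZ and rose by 1.39 ± 0.39 (adjusted p = 0.00479) in TCZ against TC. Gm15050, within the span of Hoxa3, had counts of 28 and 8 (control), 71 and 101 (TC) and 166 and 56 (TCZ) and rose by 1.97 ± 0.39 (adjusted p = 0.000168) in TC and rose by 2.71 ± 0.39 (adjusted p = 3.35e-06) in TCZ. Within the same span, 5730596B20Rik had counts of 10 and 21 (control), 1 and 7 (TC) and 1 and 3 (TCZ). It went the other way, as it fell by 2.39 ± 0.99 (adjusted p = 0.043) in TC and fell by 2.81 ± 1.11 (adjusted p = 0.0341) in TCZ. Both of its falls were lost with DESeq2 (adjusted p = 0.133 and 0.108). Beside these rows, Hoxa2 rose and Hoxa3 fell in TCZ, as given above. The strand setting of the counting is not stated in the sources used, so reads in shared bases cannot be assigned with certainty. The Hoxaas2 rise in TC was lost without control 1 (1.15, adjusted p = 0.0827), and its rise against TC without TCZ 1 (1.07, adjusted p = 0.0928).

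**Figure D4:**
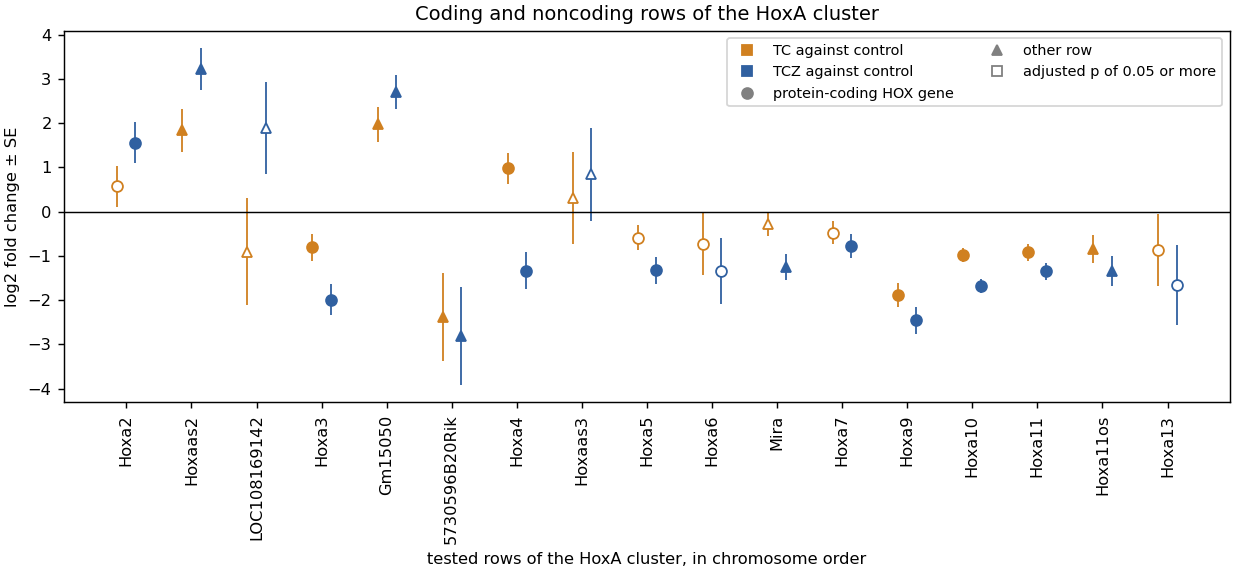
Log2 fold change ± SE of the tested rows of the HoxA cluster in chromosome order; circles are protein-coding HOX genes, triangles are other rows, and filled symbols pass an adjusted p of 0.05. Hoxaas2 and Gm15050 are called higher in both treatments, and 5730596B20Rik and Hoxa11os are called lower in both. From Hoxa5 to Hoxa13 every protein-coding point lies below 0.

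Elsewhere in the clusters, Hotair, the HoxC antisense RNA between Hoxc11 and Hoxc12, had counts of 18 and 15 (control), 131 and 104 (TC) and 65 and 41 (TCZ). It rose by 2.48 ± 0.38 (adjusted p = 5.68e-06) in TC and rose by 1.81 ± 0.39 (adjusted p = 0.000414) in TCZ, with no overlap between treated and control libraries. Hoxc11 and Hoxc12 beside it did not pass in TC. Gm53, a long noncoding row that ends upstream of the Mir196a-1 hairpin in HoxB, had counts of 616 and 386 (control), 825 and 816 (TC) and 400 and 179 (TCZ). It rose by 0.39 ± 0.10 (adjusted p = 0.0028) in TC, fell by 0.69 ± 0.11 (adjusted p = 1.76e-05) in TCZ and fell by 1.08 ± 0.11 (adjusted p = 3.05e-08) in TCZ against TC. The Mir196a-1 hairpin row had counts of 65 and 46 (control), 70 and 64 (TC) and 7 and 19 (TCZ), low in both TCZ libraries. It stood at -0.06 ± 0.45 in TC and fell by 1.82 ± 0.54 (adjusted p = 0.00591) in TCZ against control and fell by 1.75 ± 0.53 (adjusted p = 0.00791) in TCZ against TC, calls that were lost without TCZ 1 (-0.87, adjusted p = 0.156) and TCZ 1 (-0.80, adjusted p = 0.202). Reads in that row come from longer polyadenylated RNA, not from mature miR-196a, and a relation to the Hoxb8 level was not tested. Over all 36 other rows between the first and last described gene of the 4 clusters, 22 were tested, of which 6 rose and 3 fell in TC, 4 rose and 9 fell in TCZ, and 2 rose and 5 fell in TCZ against TC. This set was picked by position, and the rows named from it were chosen with values in view, so they are not a neutral sample of it. Rows of the set called in TCZ against control but not described were Gm36820, which was higher, and Mira, Gm36878, Gm29852 and Gm30528, which were lower. An antisense row within the span of Hoxb3 was also called lower there and is not described. Of 38 HOX genes, 18 overlap another row in the table, 13 of them on the opposite strand.

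HOX cofactors moved in both directions. Over all tested genes, 31.6% were called higher and 29.2% lower in TC, and 31.5% and 28.6% in TCZ. In TCZ against TC the shares were 28.2% and 27.9%. These shares stand beside the counts of the other cluster rows above and of each list below. Of 11 tested cofactor genes, 3 rose and 6 fell in TC, 3 rose and 5 fell in TCZ, and 4 rose and 1 fell in TCZ against TC, with medians of -0.29, -0.18 and 0.10. Pbx4, a PBX partner best known in testis, had levels of 0.601 and 0.421 (control), 5.83 and 6.19 (TC) and 8.98 and 6.48 (TCZ) and rose by 3.50 ± 0.21 (adjusted p = 2.14e-12) in TC and rose by 3.89 ± 0.21 (adjusted p = 3.26e-13) in TCZ. Pbx2, a widely expressed PBX partner, had levels of 7.67 and 7.64 (control), 3.46 and 3.52 (TC) and 1.43 and 1.02 (TCZ) and fell by 1.13 ± 0.12 (adjusted p = 2.48e-08) in TC and fell by 2.59 ± 0.14 (adjusted p = 2.74e-13) in TCZ. The summed cofactor level was 97.9 to 103.3 in control, 88.2 to 91.4 in TC and 108.1 to 117.9 in TCZ, where both libraries lay above control.

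Among chromatin regulators of the clusters, 12 of 31 tested Polycomb genes rose and 10 fell in TC, 11 rose and 15 fell in TCZ, and 5 rose and 17 fell in TCZ against TC. Rybp, a subunit of variant Polycomb repressive complexes, had levels of 4.89 and 4.91 (control), 16.9 and 16.3 (TC) and 32.2 and 29 (TCZ) and rose by 1.76 ± 0.08 (adjusted p = 2.2e-14) in TC and rose by 2.65 ± 0.08 (adjusted p = 2.04e-17) in TCZ. Pcgf3, the ring-finger partner of another variant complex, had levels of 22.8 and 23.3 (control), 9.46 and 10.5 (TC) and 6.1 and 5.97 (TCZ) and fell by 1.21 ± 0.07 (adjusted p = 4.18e-12) and fell by 1.93 ± 0.08 (adjusted p = 2.85e-15). Of 20 tested Trithorax and MLL genes, 8 rose and 7 fell in TC, 6 rose and 10 fell in TCZ, and 3 rose and 13 fell in TCZ against TC. Kdm6b, a demethylase that removes the Polycomb histone mark, had levels of 7.46 and 7.39 (control), 20.1 and 21.1 (TC) and 61.6 and 56.2 (TCZ) and rose by 1.47 ± 0.07 (adjusted p = 1.61e-13) and rose by 2.99 ± 0.08 (adjusted p = 1.47e-18). Dot1l, a histone methyltransferase that works with MLL partners, had levels of 10.5 and 10.1 (control), 39 and 39.9 (TC) and 57.8 and 52.9 (TCZ) and rose by 1.94 ± 0.07 (adjusted p = 1.25e-15) and rose by 2.42 ± 0.08 (adjusted p = 2.83e-17). The medians were 0.06, -0.17 and -0.41 for Polycomb and 0.15, -0.23 and -0.36 for Trithorax and MLL.

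Of 22 genes for retinoic acid handling and CDX factors, which set HOX boundaries in the embryo, 16 were tested, with 3 rises and 8 falls in TC, 1 rise and 8 falls in TCZ, and 6 rises and 5 falls in TCZ against TC. Rxra, a partner of the retinoic acid receptors, had levels of 11.8 and 11.7 (control), 3.73 and 3.8 (TC) and 1.9 and 1.93 (TCZ) and fell by 1.64 ± 0.08 (adjusted p = 5.09e-14) and fell by 2.62 ± 0.09 (adjusted p = 6.8e-17). Aldh1a3, an enzyme that makes retinoic acid, had levels of 24.1 and 20.6 (control), 15.7 and 16.3 (TC) and 2.79 and 3.4 (TCZ) and fell by 0.48 ± 0.09 (adjusted p = 4.61e-05) and fell by 2.88 ± 0.10 (adjusted p = 2.06e-16). Cdx2 had 0 counts in all 6 libraries. Other homeobox and T-box genes of regional identity were mostly lower in TCZ. Of 38 listed, 30 were tested, with 8 rises and 12 falls in TC, 4 rises and 22 falls in TCZ, and 1 rise and 17 falls in TCZ against TC. Their medians were -0.19, -1.10 and -0.64, beside the HOX medians of -0.54, -1.33 and -0.71. Prrx1, a limb and craniofacial mesenchyme factor, had levels of 66.4 and 61.7 (control), 38.9 and 37.7 (TC) and 18.2 and 18.7 (TCZ) and fell by 0.74 ± 0.07 (adjusted p = 5.5e-09) and fell by 1.79 ± 0.07 (adjusted p = 2.5e-15). Foxf1, a factor of visceral mesenchyme, had levels of 3.04 and 3.42 (control), 28.5 and 29.9 (TC) and 9.13 and 8.66 (TCZ) and rose by 3.19 ± 0.09 (adjusted p = 9.75e-18) and rose by 1.47 ± 0.10 (adjusted p = 9.14e-12), with its peak in TC.

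Genes that flank the clusters had medians near 0. Of 21 tested flanking genes, 6 rose and 7 fell in TC, 6 rose and 6 fell in TCZ, and 6 rose and 5 fell in TCZ against TC, with medians of -0.04, 0.07 and 0.05. Nfe2l1, a stress-response transcription factor beside HoxB, had levels of 65.6 and 59.4 (control), 33.5 and 35.3 (TC) and 36.2 and 34.5 (TCZ) and fell by 0.86 ± 0.07 (adjusted p = 1.06e-09) and fell by 0.82 ± 0.07 (adjusted p = 2.63e-09). Cbx1, a heterochromatin protein gene nearby, had levels of 14.9 and 14 (control), 8.07 and 8.1 (TC) and 9.24 and 8.69 (TCZ) and fell by 0.84 ± 0.08 (adjusted p = 3.85e-09) and fell by 0.69 ± 0.08 (adjusted p = 1.18e-07). The fixed list of HOX cluster noncoding RNAs had 9 tested members of 16, of which 4 rose and 1 fell in TC, 3 rose and 2 fell in TCZ, and 2 rose and 1 fell in TCZ against TC. Whether any of these lists differed from the HOX genes was not tested.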

How the data were processed

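Poly(A) RNA from 6 libraries of mouse embryonic fibroblasts, 2 each of control, TC and TCZ, was sequenced on an Illumina HiSeq instrument, per the labels' protocols. The submitters' processing notes name bcl2fastq, HISAT2 2.1.0, HTSeq and build mm10. The sources used here give neither annotation version nor strand setting. The authors deposited raw counts and RPKM values per gene, per the file headers. The deposited RPKM matched values recomputed from counts, length and library total to within 4.97e-07 and served only for that check.

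Counts were fitted in R 4.3.3 with edgeR 4.0.16 (glmQLFit, glmQLFTest) on all 6 libraries with group as the only factor, TMM factors and filterByExpr by group (minimum count 10). Of 48897 rows, 18563 were tested, leaving 3 residual degrees of freedom, and HOX rows were read from this fit. Levels are counts per 1e+06 TMM-scaled counts per kilobase, and the limit for a count of 0 is 3 counts, for counting error only. The procedure was tested on simulated data. The fit held all rows, while 1 of the 39 members and 1 noncoding row are not reported here. The other 38 members were to be accounted for, and 2 genes of each other list were named by their smallest adjusted p against control. Members and lists were chosen with earlier results of these data known. Alternatives were DESeq2 1.42.0, RLE factors, library totals, no filter, at least 50 counts in 2 libraries, only the 2 groups compared, a replicate block, leaving out control 2 with TCZ 2, and leaving out each library. MicroRNA and promoter sequences are from RefSeq on GRCm38.p6, and promoter windows matched 22 of 38 genes.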

Additional observations from a re-analysis of the deposited data

How the results depend on the processing

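No HOX gene called by edgeR changed direction under any alternative run. In TC against control the 4 rises became 2 with DESeq2 and ranged from 2 to 5 over the fits that left out 1 library, with 2 without control 2 or TC 2. The 17 falls ranged from 11 (without control 1) to 18. In TCZ against control the 2 rises became 1 with at least 50 counts in 2 libraries, where Hoxa2 was not tested, and ranged from 1 (without control 1) to 3, and the 28 falls from 24 to 28. In TCZ against TC the 1 rise, Hoxb8, became 0 with DESeq2, library totals, no low-count filter, and without control 2 and TCZ 2 (adjusted p of Hoxb8 0.107, 0.0692, 0.0718 and 0.203), and ranged from 0 to 1 over the fits without 1 library, while the 20 falls ranged from 16 to 20. Where a lone library stood for a group, it was assumed to vary like the other groups. The number of calls over all genes also changed in these fits, and whether HOX calls changed more was not tested. With DESeq2 the HOX falls were 12, 25 and 16 in the 3 comparisons. Over all genes, lower calls then went from 5412, 5313 and 5179 to 4583, 4561 and 4391. Higher calls over all genes went from 5857, 5851 and 5234 to 5329, 5417 and 4416. HOX calls lost with DESeq2 were Hoxa3, Hoxa4, Hoxb3, Hoxb4, Hoxb7, Hoxc9 and Hoxd10 in TC and Hoxa7, Hoxc11 and Hoxd3 in TCZ. In TCZ against TC they were Hoxa5, Hoxb4, Hoxb8, Hoxc5 and Hoxd13. Settings other than DESeq2 that left in every library ended the calls of Hoxb3 (library totals) and Hoxb4 (no filter) in TC, of Hoxd3 (50 counts, or only the 2 groups compared) in TCZ, and in TCZ against TC of Hoxa5 (RLE factors, 50 counts, or only the 2 groups), Hoxb8 (library totals, no filter, or only the 2 groups) and Hoxd13 (no filter, only the 2 groups, or the replicate block). Without control 2 and TCZ 2, calls were lost for Hoxa4 and Hoxd10 in TC, Hoxa7 in TCZ, and Hoxa5, Hoxb8 and Hoxd13 in TCZ against TC. Calls were also gained by 6 of the 14 HOX genes that did not pass in TC, 2 of the 5 in TCZ and 3 of the 14 in TCZ against TC, each in at least 1 alternative. In TC these were Hoxd3 (no filter, only the 2 groups, or without TC 1, TCZ 1 or TCZ 2), Hoxa5 (library totals, or without TC 1 or TCZ 1), Hoxc6 (library totals, or only the 2 groups), Hoxa7 and Hoxb9 (library totals) and Hoxd1 (only the 2 groups). In TCZ they were Hoxb9 (library totals) and Hoxd1 (without TCZ 1), and in TCZ against TC they were Hoxa9 (without TC 2 or TCZ 1), Hoxa11 (library totals) and Hoxa2 (only the 2 groups). The cause of these losses and gains was not tested. Library totals moved the median of all genes by -0.14, -0.20 and -0.06 in the 3 comparisons, and the split of all calls from 5857 higher and 5412 lower to 5079 and 6586 in TC and from 5851 and 5313 to 4556 and 7019 in TCZ. The HOX split in TC then was 3 higher and 21 lower, and the HOX medians were -0.68, -1.54 and -0.77. Whether the replicate numbers pair the samples cannot be settled here. Correlations of replicate differences were 0.006 for control and TC, 0.220 for control and TCZ, and -0.041 for TC and TCZ. Control 2 and TCZ 2 were also the shallowest libraries, so depth and a shared origin cannot be told apart. With the replicate block the HOX counts were 4 higher and 17 lower, 2 and 28, and 1 and 19. Over all genes they were 5823 higher and 5417 lower, 5854 and 5312, and 5256 and 5178. Depth limits the members with few counts, such as Hoxa6, Hoxa13, Hoxc12 and Hoxd1, whose SE exceeded 0.6 in each treatment against control.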
